A study of Mus musculus with 6 samples.

Results

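The Slitrk and Lrrtm families were examined in the P7 retina: 10 genes, *Slitrk1* to *Slitrk6* and *Lrrtm1* to *Lrrtm4*, of the 21744 listed in the deposited table. They were taken by symbol, and the families were picked with the difference of *Slitrk6* between these libraries already known. The measure that drew attention to them, control against *Lhx4* null, is therefore given for the members as a description, without a test. RNA-seq libraries came from 3 control and 3 *Lhx4* null mice at P7, with the retinas of 1 mouse in each library, on a mixed background of C57BL/6J and 129S6. In the study's *Lhx4* null retina, a floxed allele faces a tdTomato knockin allele and Six3-Cre removes the floxed one in the developing retina. For the control libraries, the labels give no genotype beyond control. Values are FPKM, the fragments of a gene scaled to transcript length and library depth, and fold changes are on log2(FPKM + 0.1), which understates the change of low genes.

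Slitrk and Lrrtm proteins span the membrane once and carry leucine-rich repeats (LRRs) on the outside. At synapses in the brain they sit mostly on the postsynaptic side and reach across the cleft, Slitrk proteins to the LAR-type receptor phosphatases and Lrrtm proteins to neurexins and heparan sulfate chains. In the retina, bipolar cells (BCs) carry signals from photoreceptors to amacrine and ganglion cells, and mice without *Slitrk6* show delayed synapse formation there and poor innervation of the inner ear.

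The depth of the libraries, read from the whole-fragment steps of 1487 low genes, ran from 76.8% to 100% of the deepest in the control libraries and from 46.7% to 65.9% in the libraries labelled *Lhx4* null. *Lhx4* itself was at 20.9, 23.8, and 19.1 FPKM in the former and 31.2, 30.3, and 29.0 FPKM in the latter. FPKM cover all exons of a gene and do not show which were read. The difference of *Lhx4* had an adjusted p of 0.098 from limma. Since gene-level FPKM do not show whether the floxed allele was removed, the second group is called null-labelled throughout. *Bhlhe23*, a BC transcription factor that the study picked in these libraries and that is named here with its values known, was at 10.2, 13.02, and 10.6 FPKM in the former and 0.814, 0.563, and 0.830 FPKM in the latter. The 5 genes listed as broad BC genes include *Otx2*, also expressed by photoreceptors. Of them, 2 (*Samsn1* and *Gsg1*) were lower and 0 higher at an adjusted p under 0.05 from limma. Both had been named by the study as lowered in these libraries, so this count is not independent evidence. The 5 genes summed to 578 to 603 FPKM in control libraries and 454 to 567 FPKM in the null-labelled ones. Rod genes reached a sum of 2567 FPKM or more in every library. Between the groups, the summed FPKM of 8 Müller glia genes (604 to 664 in control libraries, 724 to 756 in the others), 8 cone genes (349 to 495, 558 to 676), and 6 pigment cell genes (9.94 to 18.9, 19.9 to 35.7) did not overlap. The sums of the rod, amacrine, ganglion cell, horizontal cell, microglia, and endothelial lists did. A sum is carried by its highest genes, and the cone genes did not move alike. Of the 8, 6 had a log2 fold change above 0 and 2 below. The 2, *Arr3* and *Opn1mw*, were at 42.9% and 25.2% of the control mean, without overlap between the groups. Their adjusted p-values were 0.077 and 0.097 from limma. *Opn1sw*, at 184% of the control mean, was the 1 cone gene with an adjusted p under 0.05 (0.031 from limma). The part of all these cell types, and that of depth, in the values below was not tested.

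*Slitrk6* was the member that differed most, and the study had already named it as lowered in these libraries. The control libraries gave 6.68, 6.67, and 7.47 FPKM, and null-labelled ones gave 2.68, 2.86, and 2.51 FPKM. The groups were far apart, with each group spread over less than 1 FPKM, and the mean of the second was 38.6% of that of the first. The log2 fold change was -1.34 (standard error 0.11, 95% interval -1.58 to -1.10). In bulk RNA, fewer cells of a type and less RNA per cell cannot be told apart. OFF cone BCs are known to express *Slitrk6* along with some amacrine cells. Among 16 genes listed for OFF cone BCs, 7 were lower and 0 were higher at an adjusted p under 0.05 (limma over all genes). Not all of the 7 are particular to these cells, as the paper calls *Scgn* a broad cone BC marker. It also gives *Lhx3*, *Cdh8*, and *Zfhx4* for BC types beyond the OFF ones. The summed FPKM of these 16 genes ran from 127 to 144 in the controls and from 73.5 to 80.7 in the null-labelled set, and none of them was at 0 in any library. Of the 16, 14 had a log2 fold change below 0 and 2 above, so the list did not move as a whole. *Hcn4*, *Prkar2b*, and *Kcnip3*, whose proteins mark OFF cone BC subtypes in the paper, were at 110%, 96.5%, and 97.4% of the control mean. These are RNA levels of the whole P7 retina. The paper counted labelled cells without PAX6 in adult sections and found them mostly lost, with HCN4 and PRKAR2B kept in amacrine cells. The measures are unlike, so these RNA values do not show how many cells of these subtypes remained. The study had named all 7 that passed, and *Glra1* among the others, as lowered in these same libraries, so their direction is not independent evidence. Among 15 amacrine genes, 0 passed in either direction from limma, with 4 higher and 0 lower at an unadjusted p under 0.05. The part of these cells in the lower *Slitrk6* was not tested.

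The contrast that chose the families put 1 of the 10 members, *Slitrk6*, under an adjusted p of 0.05 in limma, beside 0.224% of the 15200 genes tested (0.138% lower and 0.0855% higher), which is part of the choice and no test of it. All 10 had a mean above the limit of 0.1 FPKM for the test. For 4 members every null-labelled library lay below every control library (*Slitrk6*, *Lrrtm4*, *Slitrk3*, *Slitrk5*), and for 1 member every such library lay above (*Slitrk1*). Over all genes tested, groups without overlap made up 14.2%, with 6.13% lower and 8.10% higher. Because the families were picked on this contrast, nothing is read from these counts. The median log2 fold change was -0.12 for the 6 Slitrk genes and -0.14 for the 4 Lrrtm genes, beside 0.01 for all genes tested.

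**Figure D1:**
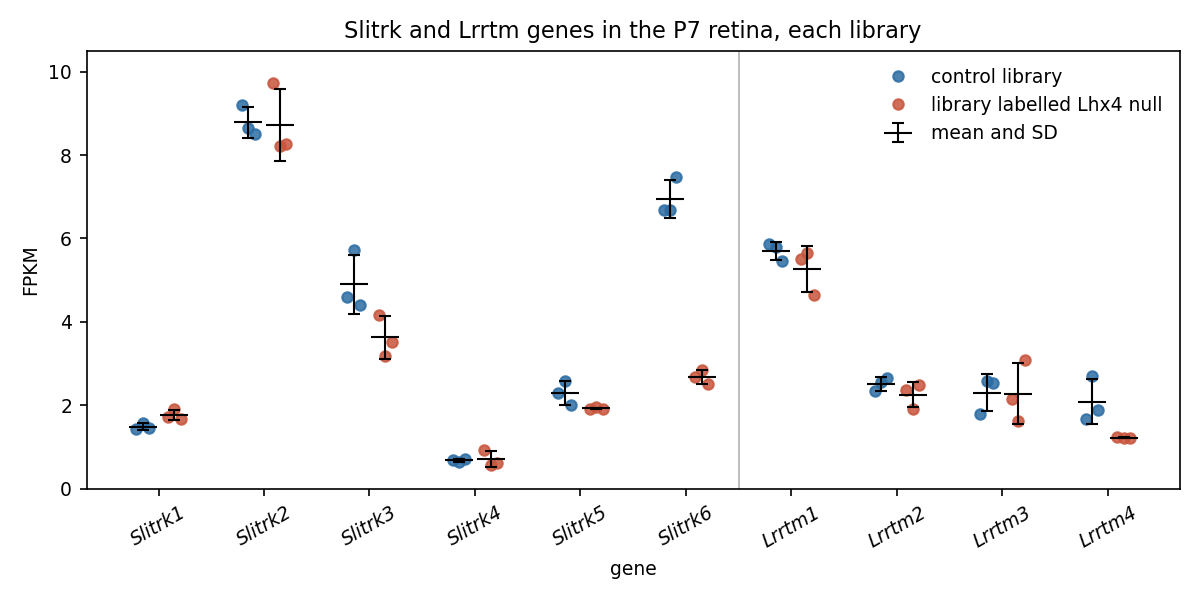
FPKM of the 6 Slitrk and 4 Lrrtm genes in each library, with the mean and SD of the 3 libraries of a group. The points of *Slitrk6* form separate groups, between 6.67 and 7.47 FPKM in the controls and between 2.51 and 2.86 FPKM in null-labelled ones, while those of *Slitrk2*, *Slitrk4*, *Lrrtm1*, *Lrrtm2*, and *Lrrtm3* overlap.

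**Figure D2:**
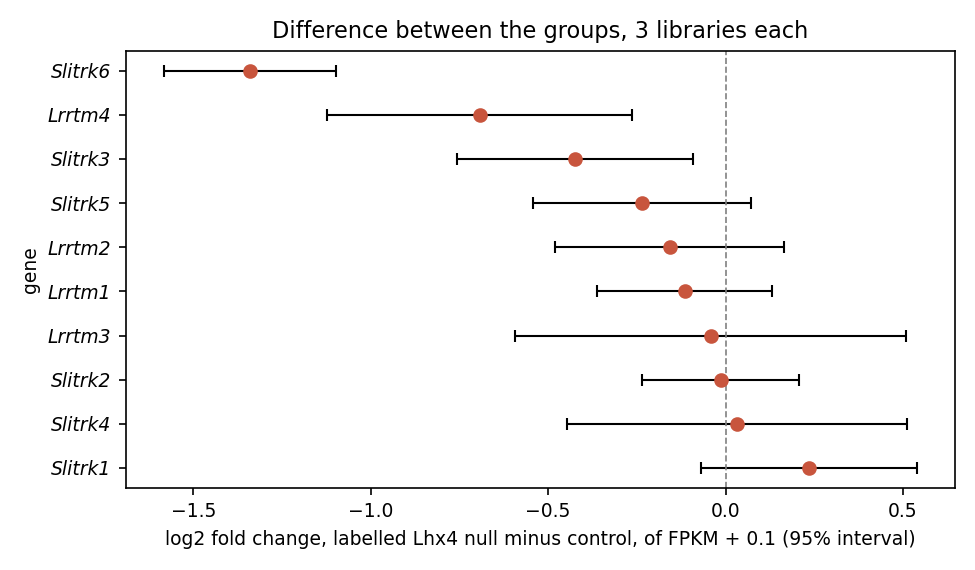
Log2 fold change of FPKM + 0.1 for each member, null-labelled libraries minus control libraries, with the 95% interval from limma. The interval of *Slitrk6* lies farthest from 0. Intervals are not adjusted for the number of genes, and since the members were chosen on this contrast they are no test.

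The other Slitrk members are known from neurons in culture as organizers of synapses. *Slitrk3*, which acts at inhibitory synapses through the phosphatase PTPδ, was at 4.60, 5.72, and 4.40 FPKM in the controls and 4.18, 3.18, and 3.53 FPKM in the null-labelled set. All 3 null-labelled libraries were lower, but the gap between the nearest libraries of the groups, 4.40 and 4.18 FPKM, was narrow. The log2 fold change was -0.42 (95% interval -0.76 to -0.09). *Slitrk5*, studied for its role in the striatum and in signalling by the neurotrophin receptor TrkB, was at 2.29, 2.58, and 2.02 FPKM against 1.91, 1.95, and 1.92 FPKM. Here the null-labelled libraries were nearly identical and lay just under the lowest control library. The interval of its log2 fold change, -0.54 to 0.07 around -0.24, includes 0, and the value was -0.15 without control replicate 2.

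*Slitrk1*, which promotes excitatory synapses, was higher in the null-labelled libraries, at 1.72, 1.91, and 1.68 FPKM against 1.43, 1.57, and 1.47 FPKM. The lowest of the first 3 values was above the highest of the other 3. The log2 fold change of 0.24 had an interval of -0.07 to 0.54. *Slitrk2* gave the highest FPKM of the family, with 9.20, 8.66, and 8.50 in the controls and 9.72, 8.21, and 8.26 in the null-labelled set. Its values overlapped, and its log2 fold change, -0.01, was bounded between -0.23 and 0.21. *Slitrk4* was the lowest, at 0.681, 0.643, and 0.709 FPKM in the controls and 0.929, 0.575, and 0.625 FPKM in the null-labelled set, so that replicate 1 of the null-labelled libraries stood above all the rest and the other two stood below. Its interval of -0.45 to 0.51 leaves room for a change in either direction.

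The sum of the 6 Slitrk genes was 24.9, 25.8, and 24.6 FPKM in the controls and 21.1, 18.7, and 18.5 FPKM in the null-labelled libraries. Without *Slitrk6*, the sum was 18.2, 19.2, and 17.1 FPKM against 18.5, 15.8, and 16.01 FPKM, and the groups overlapped. *Slitrk6* made up 26.9%, 25.8%, and 30.4% of the family's FPKM in the controls and 12.7%, 15.3%, and 13.5% in the null-labelled set. The share of *Slitrk2* was 35.0% ± 1.8 (mean ± SD, n = 3) in the controls and 44.8% ± 1.1 (n = 3) in the null-labelled set, although its own FPKM overlapped. As shares add up to the whole, a lower share of 1 gene raises the shares of the others.

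**Figure D3:**
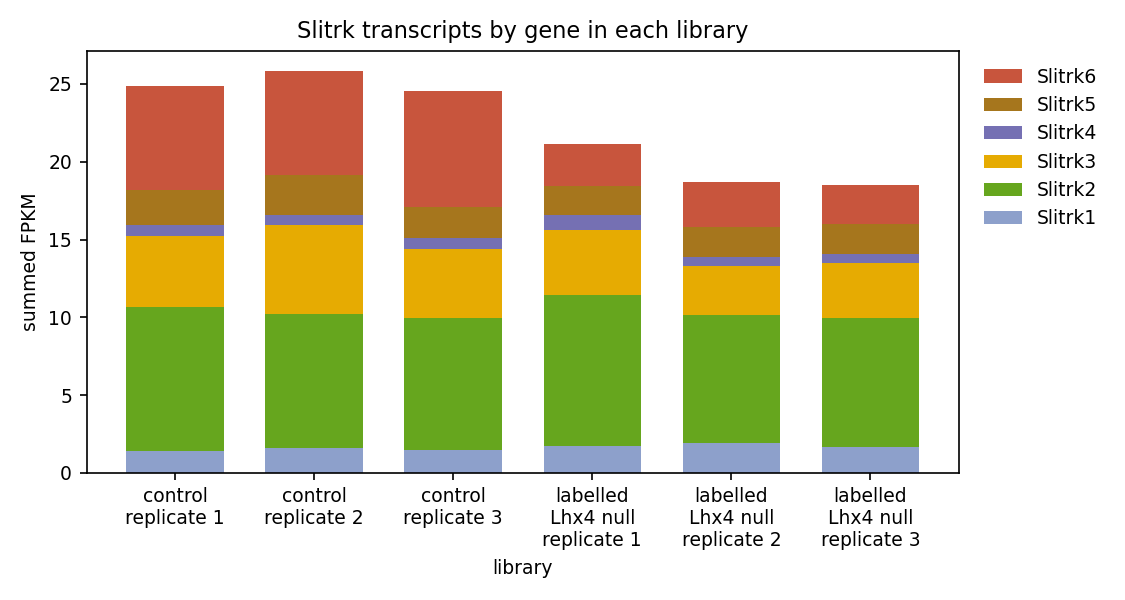
Stacked FPKM of the 6 Slitrk genes in each of the 6 libraries. The segment of *Slitrk6* is 6.67 to 7.47 FPKM high in the controls and 2.51 to 2.86 FPKM high in the null-labelled libraries, and the sums of the other 5 genes overlap.

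Of the Lrrtm genes, *Lrrtm4* differed most. LRRTM4 binds glypicans and neurexins through heparan sulfate, and in the mouse retina it is found at the axon terminals of rod bipolar cells (RBCs). *Lrrtm4* was at 1.68, 2.71, and 1.88 FPKM in the controls and 1.24, 1.23, and 1.22 FPKM in the null-labelled libraries. The second group was tight and below all control libraries, and control replicate 2 stood above its own group. The mean was 58.8% of that of the control libraries, and the log2 fold change was -0.69 (95% interval -1.12 to -0.26). Without control replicate 2 it was -0.50. Among 15 genes of ON BCs and RBCs, 4 were lower and 0 were higher at an adjusted p under 0.05 from limma, and their summed FPKM ran from 485 to 659 in the controls and from 337 to 395 in the null-labelled set, with none at 0 in any library. The part of these cells in the *Lrrtm4* values was not tested. Of the 4 that passed, *Grm6*, *Pcp2*, and *Bhlhe23* had been named by the study as lowered in these libraries, and the other was *Isl1*. Of the exon bases of *Lrrtm4*, 25.1% lie opposite an antisense gene, *Gm4409*, and since the use of strand is not stated, reads of both could not be told apart there.

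*Lrrtm1* and *Lrrtm2*, which bind neurexins and help to hold AMPA receptors at excitatory synapses, overlapped between the groups. *Lrrtm1* was at 5.86, 5.79, and 5.46 FPKM against 5.51, 5.66, and 4.65 FPKM in the null-labelled libraries, a log2 fold change of -0.11 (95% interval -0.36 to 0.13). *Lrrtm2* was at 2.33, 2.56, and 2.65 FPKM against 2.36, 1.91, and 2.496 FPKM (log2 fold change -0.16, interval -0.48 to 0.17). *Lrrtm3* ranged from 1.80 to 2.59 FPKM in the controls and from 1.62 to 3.08 FPKM in the null-labelled set. Its interval, -0.59 to 0.51, was the widest of the 10. *Lrrtm1* supplied 45.4% ± 4.2 (SD, n = 3) of the family's FPKM in the controls and 48.0% ± 6.9 (n = 3) in the null-labelled set.

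In the control libraries the members were ordered *Slitrk2*, *Slitrk6*, *Lrrtm1*, *Slitrk3*, *Lrrtm2*, *Lrrtm3*, *Slitrk5*, *Lrrtm4*, *Slitrk1*, and *Slitrk4* by mean FPKM, a level per length. *Lrrtm1* and *Slitrk3* overlapped, and so did each neighbouring pair from *Lrrtm2* to *Lrrtm4*. The other neighbours did not. *Slitrk6* was second in the controls, at 6.94 ± 0.46 FPKM (mean ± SD, n = 3), and behind *Lrrtm1* and *Slitrk3* as well in the null-labelled libraries, at 2.68 ± 0.18 FPKM (n = 3), where its values overlapped those of *Lrrtm3* next to it. *Slitrk2*, the highest member in both groups, stood at the 50.3 percentile of the genes tested in the controls, and *Slitrk4* at the 14.6 percentile.

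*Slitrk6*, *Slitrk1*, and *Slitrk5* lie next to each other on chromosome 14. In GENCODE vM21 on GRCm38, the build the labels name, *Slitrk1* (ENSMUSG00000075478) runs from 108908800 to 108914158, *Slitrk6* (ENSMUSG00000045871) from 110748580 to 110755149, and *Slitrk5* (ENSMUSG00000033214) from 111675097 to 111683141. Each of the 6 Slitrk genes has its longest coding sequence in 1 exon, of 2520 bases in *Slitrk6*, and shares 0 exon bases with another annotated gene. The gaps from *Slitrk6* to *Slitrk1* and *Slitrk5* are 1.83 and 0.920 megabases, with 10 and 7 annotated genes in them, of which 0 code for protein and 0 were tested. The 3 neighbours thus had log2 fold changes of 0.24 (*Slitrk1*), -1.34 (*Slitrk6*), and -0.24 (*Slitrk5*). Beyond them, the nearest tested genes were *Spry2* (17.6 ± 0.87 against 17.4 ± 2.8 FPKM, mean ± SD, n = 3 each) and *Tpm3-rs7* (2.62 ± 0.12 against 3.01 ± 0.18 FPKM), with adjusted p-values of 0.97 and 0.69 from limma. *Slitrk4* and *Slitrk2* are each other's nearest tested gene on one side, 2372 kilobases apart on chromosome X. Their outer neighbours *Ldoc1* and *Fmr1* had adjusted p-values of 0.86 and 0.99. *Slitrk3*, on chromosome 3, lies between *Sptssb* and *Bche*, with adjusted p-values of 0.81 and 0.53. *Bche*, which encodes butyrylcholinesterase, was at 0.996 ± 0.16 FPKM in the controls and 0.625 ± 0.14 FPKM in the null-labelled set (log2 fold change -0.60) without overlap.

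The promoter windows of the 3 neighbours on chromosome 14, 250 bases before to 50 bases after the start in RefSeq (GRCm38.p6), are shown because the genes are neighbours and the *Slitrk6* values stand apart from those of the other two. Capitals mark TAAT or its reverse complement ATTA, the core that many homeodomain factors recognise. The windows are chr14:110755100-110755399 (minus strand), chr14:108914190-108914489 (minus strand), and chr14:111675777-111676076 (plus strand).
Slitrk6: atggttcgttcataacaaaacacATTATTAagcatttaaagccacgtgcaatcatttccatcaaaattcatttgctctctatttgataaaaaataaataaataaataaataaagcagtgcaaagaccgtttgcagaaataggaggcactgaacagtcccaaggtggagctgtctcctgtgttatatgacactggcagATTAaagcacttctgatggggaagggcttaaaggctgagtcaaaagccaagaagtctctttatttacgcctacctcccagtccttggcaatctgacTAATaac
Slitrk1: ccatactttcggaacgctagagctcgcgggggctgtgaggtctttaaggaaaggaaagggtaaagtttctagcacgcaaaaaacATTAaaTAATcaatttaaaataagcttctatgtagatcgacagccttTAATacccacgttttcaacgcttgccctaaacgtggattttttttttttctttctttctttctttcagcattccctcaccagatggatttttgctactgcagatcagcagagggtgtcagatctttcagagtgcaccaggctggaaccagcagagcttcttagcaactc
Slitrk5: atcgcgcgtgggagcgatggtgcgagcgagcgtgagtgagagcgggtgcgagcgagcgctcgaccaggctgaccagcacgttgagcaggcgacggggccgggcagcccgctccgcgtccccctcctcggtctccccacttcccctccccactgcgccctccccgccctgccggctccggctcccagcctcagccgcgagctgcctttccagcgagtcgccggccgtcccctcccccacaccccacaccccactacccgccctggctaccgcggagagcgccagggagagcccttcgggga
The window of *Slitrk6* holds 4 matches on the 2 strands, 2 of them overlapping, that of *Slitrk1* holds 3, and that of *Slitrk5*, of which 74.3% is G or C, holds 0. TAATTA, a palindrome that contains both TAAT and ATTA, occurs in 5.29% of the 32851 RefSeq windows of this length and in 0 of the 10 windows of the 8 members matched. TAAT or ATTA occurs in 58.0% of all windows and in 6 of the 10. A match describes the letters and is not a binding site.

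The tested genes whose profiles over the 6 libraries were nearest to that of *Slitrk6* were *Lhx3*, *A730046J19Rik*, *Zfhx4*, *Fezf2*, and *Cdh8*. Likeness was the root mean square distance between log2(FPKM + 0.1) values centred on each gene's mean, and the distances were 0.094, 0.14, 0.18, 0.18, and 0.19. The distance includes the difference between the groups, so a gene lower by about as much comes close. *Lhx3*, a LIM-homeodomain factor, was at 15.4, 15.8, and 15.3 FPKM in the controls and 5.40, 6.11, and 5.82 FPKM in the null-labelled set, a mean of 37.2% of the control mean, where that of *Slitrk6* was 38.6%. *Fezf2* and *Zfhx4* encode zinc finger factors, and *Cdh8* encodes a classical cadherin. Of these 5 genes, 4 are in the list of OFF cone BC genes above, and *A730046J19Rik* is not. The study had named all 5 as lowered in these libraries, so nothing is read from this overlap about the cells that express *Slitrk6*.

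**Figure D4:**
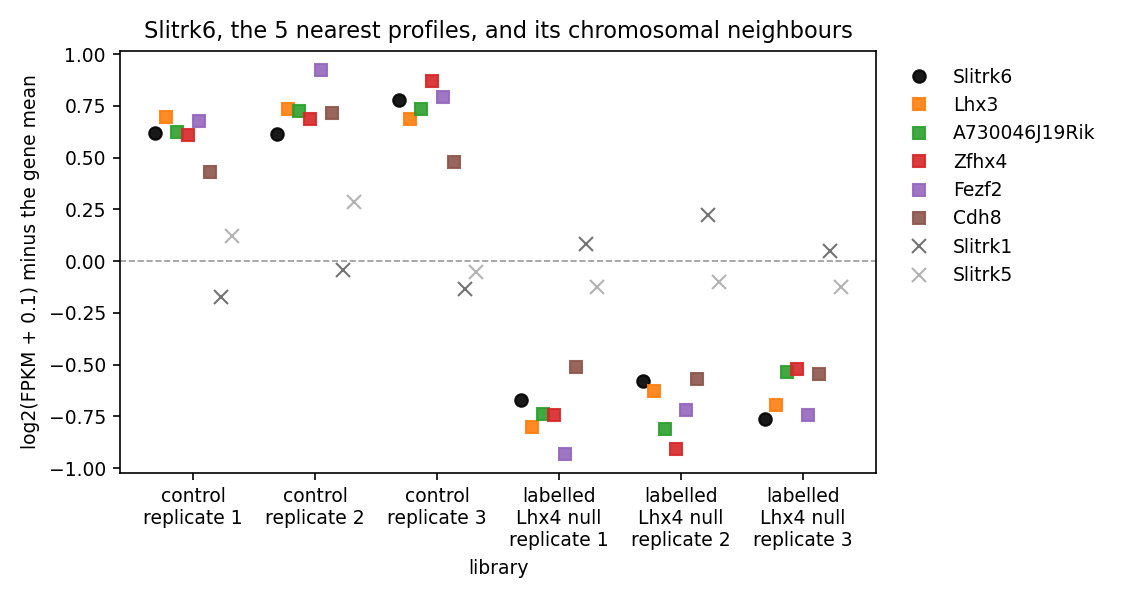
Log2(FPKM + 0.1) in each library minus the mean of the gene over the 6 libraries, for *Slitrk6*, the 5 genes with the nearest profiles, and the neighbours *Slitrk1* and *Slitrk5*. *Slitrk6* and the 5 genes lie above 0 in every control library and below 0 in every null-labelled library, and *Slitrk1* lies on the opposite side.

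The presynaptic partners were tested in the same fit. *Ptprd*, *Ptprs*, and *Ptprf* encode the LAR-type phosphatases that Slitrk proteins bind, and *Nrxn2* and *Nrxn3* encode neurexins, which Lrrtm proteins bind. By limma, none of these 5 genes reached an adjusted p under 0.05. *Ptprd* had the largest difference, with 61.4, 53.2, and 59.2 FPKM in the controls and 39.0, 30.8, and 55.4 FPKM in the null-labelled libraries. The groups overlapped, as replicate 3 of the second lay among the control values (log2 fold change -0.51, standard error 0.19, adjusted p = 0.56 from limma). Without replicate 2 of that group the log2 fold change was -0.31, and without replicate 3 it was -0.74. *Ptprf* was at 23.1 ± 1.4 against 27.5 ± 3.4 FPKM (mean ± SD, n = 3 each, adjusted p = 0.60 from limma), and *Ptprs* at 100.1 ± 2.3 against 111.8 ± 17.0 FPKM (adjusted p = 0.73), where null-labelled replicate 2 was the high value and the log2 fold change went from 0.15 to 0.03 without it. The log2 fold changes were 0.08 for *Nrxn2* and -0.13 for *Nrxn3*, with adjusted p-values of 0.85 and 0.83 from limma, and the sign of *Nrxn3* turned when a single library was left out.

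Over 76 genes for partners, scaffolds, and related LRR proteins, 74 were tested, and 0 had an adjusted p under 0.05 from limma, beside 34 of the 15200 genes tested. At an unadjusted p under 0.05, 6 were lower and 5 were higher, where 8.15% of all genes tested had such a p. The median log2 fold change was 0.02. Among 31 tested LRR membrane proteins outside both families, *Lrtm1* was lowest, at 1.69 ± 0.71 FPKM (mean ± SD, n = 3) in the controls and 0.690 ± 0.264 FPKM (n = 3) in the null-labelled set (log2 fold change -1.16, adjusted p = 0.39 from limma). With another method and threshold, the study had named *Lrtm1* as lowered in these libraries. *Islr2*, which acts in axon growth, was highest, at 19.1, 18.2, and 19.6 FPKM against 24.1, 34.8, and 31.5 FPKM (log2 fold change 0.65, adjusted p = 0.14 from limma). Without replicate 1 of the null-labelled libraries, *Islr2* had an adjusted p of 0.021 from limma, and it was then the 1 gene of the 74 that passed.

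Of 10 further ligands of the LAR-type phosphatases, *Il1rap*, a receptor subunit that binds PTPδ, was lowest (2.95 ± 0.34 against 2.18 ± 0.31 FPKM, mean ± SD, n = 3 each, log2 fold change -0.42, adjusted p = 0.53 from limma), without overlap between the groups. *Il1rapl2* was highest (log2 fold change 0.39, adjusted p = 0.73 from limma), but without null-labelled replicate 1 its log2 fold change was 0.10. The 6 glypicans, which carry heparan sulfate, ran from -0.03 (*Gpc6*) to 0.38 (*Gpc3*) on the log2 scale, with adjusted p-values of 0.97 and 0.68 from limma. That of *Gpc3* was 0.14 without control replicate 3 and 0.60 without control replicate 2. The 4 liprins-alpha, which bind LAR-type phosphatases inside the terminal, lay between -0.07 (*Ppfia2*) and 0.04 (*Ppfia3*), with adjusted p-values of 0.81 and 0.94. Over 15 postsynaptic scaffolds the log2 fold change ran from -0.21 (*Dlg4*, which encodes PSD-95) to 0.45 (*Dlgap2*), with adjusted p-values of 0.74 and 0.59 from limma. Leaving out single libraries moved *Dlg4* between -0.40 (without null-labelled replicate 1) and -0.09 (without null-labelled replicate 3).

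**Figure D5:**
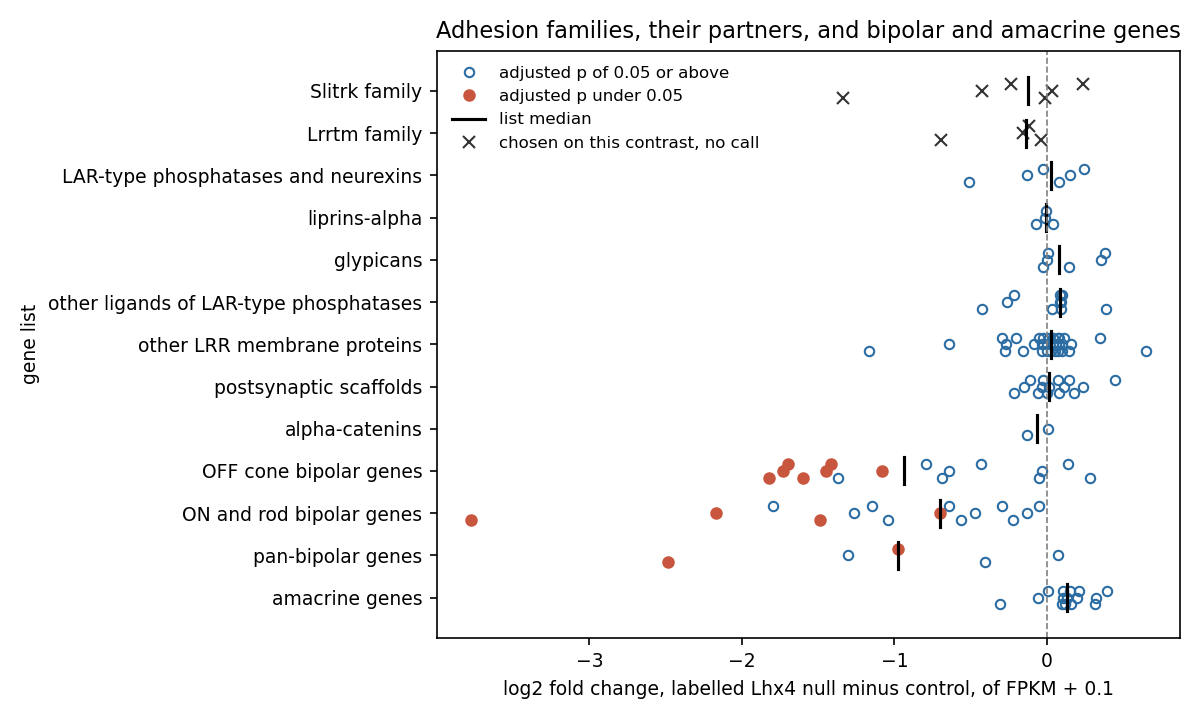
Log2 fold change of FPKM + 0.1 of each tested gene by list, null-labelled libraries minus control libraries, with filled points for an adjusted p under 0.05 from limma and a bar at the median. The Slitrk and Lrrtm genes, chosen on this contrast, are drawn as crosses with no call. The filled points among the other lists plotted (partners, related proteins, BC and amacrine genes) are all in the 3 lists of BC genes, with medians of -0.94, -0.70, and -0.98. Most of these filled points are genes that the study had named as lowered in these libraries.

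*Lrrtm1*, *Lrrtm2*, and *Lrrtm3* lie within the alpha-catenin genes *Ctnna2*, *Ctnna1*, and *Ctnna3*, each on the opposite strand. *Lrrtm1* (ENSMUSG00000060780) is on chromosome 6 of GRCm38 from 77242689 to 77257791, and *Lrrtm3* (ENSMUSG00000042846) is on chromosome 10 from 63928472 to 64090277. *Lrrtm4* (ENSMUSG00000052581) is also on chromosome 6, from 80018877 to 80810143, outside any alpha-catenin gene. *Ctnna1* was at 26.9 ± 1.2 FPKM (mean ± SD, n = 3) in the controls and 27.0 ± 0.97 FPKM (n = 3) in the null-labelled set, and its log2 fold change of 0.0059 turned sign under other scalings. *Ctnna2* was at 16.2 ± 0.31 and 14.8 ± 1.3 FPKM (log2 fold change -0.13), and their adjusted p-values from limma were 0.99 and 0.71. *Ctnna3* was between 0.010 and 0.11 FPKM in the 6 libraries and was not tested. *Lrrtm3* was thus read at over 1.6 FPKM in every library within a host gene read at 0.11 FPKM or less. Of the exon bases of *Lrrtm2*, 1.58% overlap those of *Ctnna1*, and *Lrrtm1* and *Lrrtm3* share 0 with another gene.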

How the data were processed

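RNA was sequenced from P7 retinas, with 3 mice labelled control and 3 labelled *Lhx4* null, 1 library per mouse. According to the paper's methods and the submitters' processing notes, the authors mapped paired-end reads with TopHat2 to GRCm38 and used Cufflinks to estimate the FPKM of each gene, which is the deposited unit. Program versions, the annotation, and the use of strand are not given in the sources used here. Groups came from the sample titles, and 0 columns were left unused. P6 libraries were left out.

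As the unit is not a count, log2(FPKM + 0.1) was fitted with limma 3.58.1 in R 4.3.3 (lmFit, eBayes with a mean-variance trend) over the 15200 of 21744 genes whose mean reached 0.1 FPKM, with Benjamini-Hochberg adjustment over all of them and a threshold of 0.05. All p-values are two-sided. An exact permutation test of 3 against 3 cannot go below p = 0.1. For a repeated symbol (6 in the table) the row with the highest mean was taken. The depth of the libraries is known only relative to each other, from the most frequent ratio of FPKM between libraries among genes under 0.1 FPKM in every library. The fit and the depth estimate were tested on simulated data.

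The members, lists, and tests were chosen with earlier results of these data known. The genes named were the members, *Lhx4*, the presynaptic partners (1 is not reported here) and alpha-catenins, the lowest and highest gene of each other list and any gene of it past the threshold, the nearest tested genes beside each Slitrk gene, and the 5 nearest profiles to *Slitrk6*. The search for TAAT was added after the promoters were seen. Gene positions are from GENCODE vM21 on GRCm38 (21603 of 21744 identifiers found), and promoters are from RefSeq, matched by symbol for 8 of the 10 members. The comparison of protein sequences was not run. Tables and plots were made in Python 3.11.15 (matplotlib 3.10.9). Alternatives, 14 in all, were a pseudocount of 1 or 0.01 FPKM, no filter or one at a mean of 1 FPKM, median-of-ratios scaling, quantile normalization, no trend, a replicate block, and leaving out each library in turn.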

Additional observations from a re-analysis of the deposited data

How the results depend on the processing

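The log2 fold change of *Slitrk6* lay between -1.39 and -1.11 over 14 alternatives, with the value nearest 0 at a pseudocount of 1 FPKM. The members were chosen on this contrast, so this range describes the value and is no test. *Lrrtm4*, *Slitrk3*, *Slitrk5*, *Lrrtm1*, and *Lrrtm2* stayed below 0 and *Slitrk1* above 0 in all alternatives, whereas *Slitrk2*, *Slitrk4*, and *Lrrtm3* lay on either side of 0. *Slitrk4* gave no value with a mean of at least 1 FPKM, since it was below that limit. The replicate block (the replicate number as a term) gave 0 partner or related genes past the threshold, the same count as without it. Same-numbered libraries did not deviate together (correlations of -0.13, -0.00020, and 0.16), so the numbers were not taken to pair the mice. Without each library in turn, from 0 to 1 of the 74 partner and related genes passed. Single libraries also turned the sign of values near 0: *Nrxn3* (-0.22 to 0.020), *Gpc6* (-0.074 to 0.0031), *Spry2* (-0.13 to 0.10), *Ctnna1* (-0.022 to 0.040), and *Fmr1* (-0.064 to 0.044). *Ctnna1* was at -0.0083 and *Fmr1* at -0.011 under median-of-ratios scaling, and at -0.016 and -0.0094 under quantile normalization. The depth of the shallowest library, 46.7% of the deepest, limits the precision of members near 1 FPKM such as *Slitrk4*.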
